A study of Mus musculus with 4 samples.

Results

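The antioxidant and glutathione genes described here are enzymes and regulators that keep reactive oxygen, peroxides and electrophiles low in the cell. They were chosen by gene name on the array: the glutathione S-transferases (Gst) of the alpha, mu, pi, theta, omega and kappa classes, the peroxiredoxins (Prdx), the glutathione peroxidases (Gpx), the superoxide dismutases (Sod), and 14 single genes that include catalase (Cat), Nqo1, Hmox1, the metallothioneins Mt1 and Mt2, and the regulators Nfe2l2 and Keap1. The rule itself uses names only, but it was drawn up when earlier results of these data were known. The rule found 49 genes, read by 73 probes, among 27745 gene names on the array (accessions used as names included). All 49 matched a current RefSeq symbol.

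The arrays compared mouse embryonic fibroblasts (MEFs, primary connective tissue cells of the embryo) of C57BL/6J background grown at low and at high density. Low density cells were harvested after 48 h, before confluence, and high density cells after 3 to 5 days, so that density and time in culture moved together and cannot be told apart. The genotype label was Lats2+/+ (WT) or Lats2-/- (KO), Lats2 being a Hippo pathway kinase that limits proliferation when cells are crowded. The source names spell the gene LAT2. Each genotype was hybridised on 2 two-colour arrays in which the same pair of conditions carried exchanged dyes: array 1 had high density in Cy5 and low density in Cy3, and array 2 the reverse. The labels call array 2 a dye swap but do not say whether it carries the same RNA extracts. The 2 arrays were taken here, as an assumption, for a technical repeat of 1 culture per genotype and density. How many embryos or lines stood behind each culture, and which part of Lats2 was deleted, are not given in the sources used here.

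Cells meet oxidants with a few linked systems. Glutathione, a small thiol, is built by glutamate-cysteine ligase, regenerated by glutathione reductase, used by glutathione peroxidases to reduce peroxides, and joined to electrophiles by the glutathione S-transferases. Peroxiredoxins and the thioredoxin pair do the same work through protein thiols, and metallothioneins bind zinc and copper and can also scavenge radicals. The transcription factor NRF2, encoded by Nfe2l2 and held back by Keap1, switches on many of these genes through the antioxidant response element, while metallothionein genes answer to metal and glucocorticoid through other elements.

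All values are log2 ratios from background-corrected, loess-normalised intensities. The density effect is high over low density within an array, averaged over the 2 arrays of a genotype. The genotype difference is KO over WT within the same dye at 1 density, averaged over the 2 dyes. Each gene is represented by its brightest probe, and ± gives the SD over the 2 arrays or dyes (n = 2), which under that assumption is technical. With 1 culture per group so assumed, no test between conditions was possible, so a gene is called different only by size: a mean of at least 2-fold (1 on the log2 scale) and 1 sign over the pair of arrays or dyes. Of the 49 genes, 34 were well above background in all 8 channels (4 arrays, 2 dyes), and 7 could be measured in 0 of the 5 comparisons (Gpx3, Gpx5, Gpx6, Gsta2, Gstm6, Gstt4 and Slc7a11).

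The Lats2 probes did not follow the label. Of 4 Lats2 probes, 3 were higher in the KO-labelled cultures, by 1.19, 1.39 and 1.38 at low density and by 0.91, 1.34 and 1.49 at high density. Those 3 lie between 56644080 and 56645305 on chromosome 14 (mm8), and the other probe, at chr14:56676512-56676571, differed by -0.63 and -1.26. The study checked the knockout on protein by western blotting, which was not analysed here. Whether any of these probes lies in the deleted part is not known here, so every genotype direction below is one between cultures labelled KO and WT. The KO arrays came from 2 slides and the WT arrays from 1 further slide, so slide and genotype cannot be told apart. The share of features well above background ran from 52.8% to 67.7% over channels, and the number of arrays limits the precision. All 12 fibroblast markers were well above background in every culture, and they moved with density too: 5 were higher and 3 lower in WT (66.7%), and 8 higher and 1 lower in KO (75%). Between genotypes 2 were higher and 3 lower in KO at low density (41.7%), and 5 higher and 2 lower at high density (58.3%). Of all genes, 15.5% and 11.0% passed with density in WT and KO, and 15.7% and 14.5% between genotypes at low and high density. Of 11 macrophage markers, 4 were well above background in each WT culture and 5 in each KO culture, with summed intensities of 1293 to 1402 and 2042 to 5958. Lyzs was higher in KO by 4.75 at high density, and at low density it was well above background on both KO arrays and on 0 WT arrays. Cd14 differed by -1.80 and -1.59, with a median over the 5 measured markers of 0.02 and 0.14. Emr1, Itgam and Ptprc were well above background on both arrays of 0 cultures. Of 9 endothelial markers 1 or 2 were well above background, and their sum reached 9012 at low density in KO against at most 2886 in the other cultures. Of 9 epithelial markers 1 to 3 were well above background, with a sum of 1921 to 2002 in WT and 862 to 919 in KO at low density. Krt19 was lower in KO at low density (-1.94) and lower at high density in WT (-2.17), and in KO at high density it was well above background on 1 of the 2 arrays. The part of such cells in the results was not tested.

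With density, more of the called members were higher than lower in both genotypes. In WT, 11 of 42 measured members were higher at high density and 3 were lower, or 33.3%, where 15.5% of all measured genes passed the same rule (9.42% higher and 6.09% lower). The members' median was 0.30 (WT1 0.34, WT2 0.32) against 0.06 over all genes. In KO, 7 of 38 members were higher and 2 lower, or 23.7%, against 11.0% of all genes (7.16% higher and 3.87% lower). Glutathione S-transferases made up 8 of these KO calls, from 13 measured, and Nfe2l2 was the other. In WT they made up 9 of the calls, from 16 measured. The members' median in KO was 0.02. That median moved to -0.41 when arrays were centred on the median in place of loess, where the median of all genes moved from 0.06 to -0.08, and the split of calls became 6 higher and 3 lower. In WT the same step moved the median of all genes from 0.06 to -0.05 and the members' median to 0.27. In bulk RNA, fewer cells of a type and less RNA per cell cannot be told apart.

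Between genotypes, 9 of 40 members were higher in KO at low density and 4 lower, or 32.5%, against 15.7% of all genes (7.31% higher and 8.37% lower). Over all measured members 27 were above 0 and 13 below, with a median of 0.28 against 0.03 over all genes. That median was 0.15 without KO replicate 1 or WT replicate 1 and 0.097 with no filter on dim probes. At high density 2 of 42 members were higher and 7 lower, or 21.4%, against 14.5% of all genes (6.74% higher and 7.79% lower), while over all measured members 21 were above 0 and 21 below, with a median of 0.03, as over all genes. The 9 calls became 14 without the offset, where 21.8% of all genes were called, and 16 with Agilent's processed signals, where 25.9% were. The fifth comparison, the KO density effect minus the WT density effect, called 2 of 38 members higher and 6 lower, or 21.1%, against 9.53% of all genes (4.55% higher and 4.98% lower), with a median of -0.29 over members and 0.02 over all genes. It uses the same arrays as the other comparisons and equals the change of the genotype difference from low to high density, so it is not separate evidence. In all, 22 of the 49 genes passed the rule in at least 1 comparison.

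**Figure D1:**
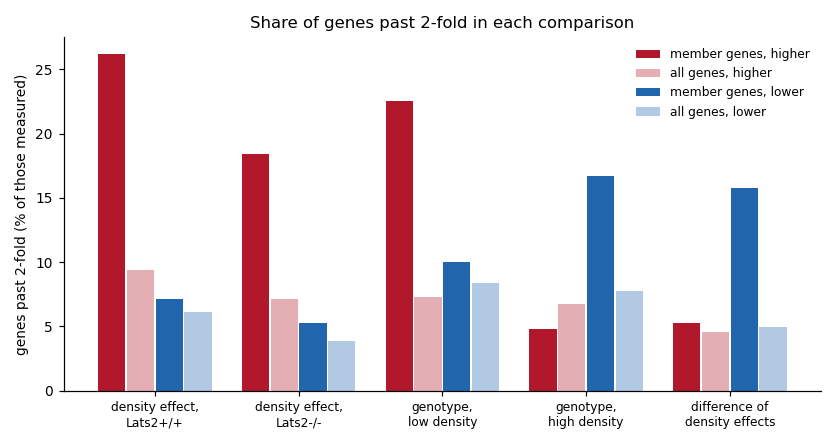
Share of genes past 2-fold in the 5 comparisons, in percent of the genes measured in each, with member genes in full colour and all genes pale. Members called higher stand well above the pale bars in both density effects and at low density between genotypes (11 of 42, 7 of 38 and 9 of 40), and at high density between genotypes the members called lower (7 of 42) do so. In the KO density effect, 6 of the 7 members called higher are glutathione S-transferases.

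The metallothioneins gave the largest genotype-dependent density effect. Mt1 and Mt2, small cysteine-rich metal binders, are neighbours on mouse chromosome 8, where the array places their probes at chr8:97069240-97069299 and chr8:97062600-97062659 (build mm8). Because they moved together in WT, their promoter windows from RefSeq (GRCm38.p6, plus strand, 250 bases before to 30 after the annotated start) are shown, with the metal response element cores TGCACNC and TGCGCNC on either strand in capitals. The Mt1 stretch is chr8:94178839-94179118 and the Mt2 stretch chr8:94172368-94172647.
Mt1: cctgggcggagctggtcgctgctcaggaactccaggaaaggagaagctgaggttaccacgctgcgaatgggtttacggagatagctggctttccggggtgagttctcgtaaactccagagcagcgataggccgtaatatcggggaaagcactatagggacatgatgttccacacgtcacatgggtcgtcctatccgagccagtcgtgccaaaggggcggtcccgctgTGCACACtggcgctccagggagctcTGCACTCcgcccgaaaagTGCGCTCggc
Mt2: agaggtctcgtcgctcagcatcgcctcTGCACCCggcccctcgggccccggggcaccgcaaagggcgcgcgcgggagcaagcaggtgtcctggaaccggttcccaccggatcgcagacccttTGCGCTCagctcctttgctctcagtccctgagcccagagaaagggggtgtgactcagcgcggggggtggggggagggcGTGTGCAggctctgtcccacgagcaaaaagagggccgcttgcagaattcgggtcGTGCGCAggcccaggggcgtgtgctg
The Mt1 stretch held 3 such cores and the Mt2 stretch 4. Of 27025 genes with a window of 300 bases, 28.2% held at least 1 core of either kind, and of 42 members with a window 14 did. A match is a description of the letters and not a bound site.

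In WT, Mt1 was higher at high density by 3.401 on array 1 and 3.171 on array 2. That is 9.76-fold (3.29 ± 0.16). The probe was printed 10 times on each array, with an SD over spots of 0.028 on WT1 and 0.046 on WT2. In KO, Mt1 was lower by 0.62 and 0.90 on the log2 scale on the 2 arrays (mean -0.76 ± 0.20), short of 2-fold. Under median centring the mean was -1.05, past the size of the rule, but it was not called because the 2 arrays did not share 1 sign. The log2 intensity of Mt1 was 10.38 and 10.54 in WT at low density and 13.78 and 13.71 at high density, against 11.46 and 11.54, then 10.84 and 10.64, in KO. Mt1 thus stood higher in KO at low density (1.04 ± 0.05) and 8.02-fold lower at high density (-3.00 ± 0.09). A second Mt1 probe showed the same signs at smaller size, 1.43 in WT, -0.57 in KO, and 0.40 and -1.59 between genotypes, with a difference of the effects of -1.997, and with the mean of both probes the low density difference (0.72) was not called.

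Mt2 was higher at high density in WT by 2.96 and 3.03 on the 2 arrays, or 7.996-fold (3.00 ± 0.05). In KO the arrays gave 0.53 and 0.05 (0.29 ± 0.34). Between genotypes Mt2 was lower in KO by 3.87 in Cy3 and 3.47 in Cy5 at high density, or 12.7-fold (-3.67 ± 0.29). At low density it differed by -1.03 and -0.89, just short of 2-fold on average. It reached the threshold without KO replicate 2 or WT replicate 2 (-1.03), without the offset (-1.01) and with Agilent's signals (-1.001). The KO density effect minus the WT one was -4.05 for Mt1 and -2.71 for Mt2. Whether either probe also reads the other gene was not tested.

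**Figure D2:**
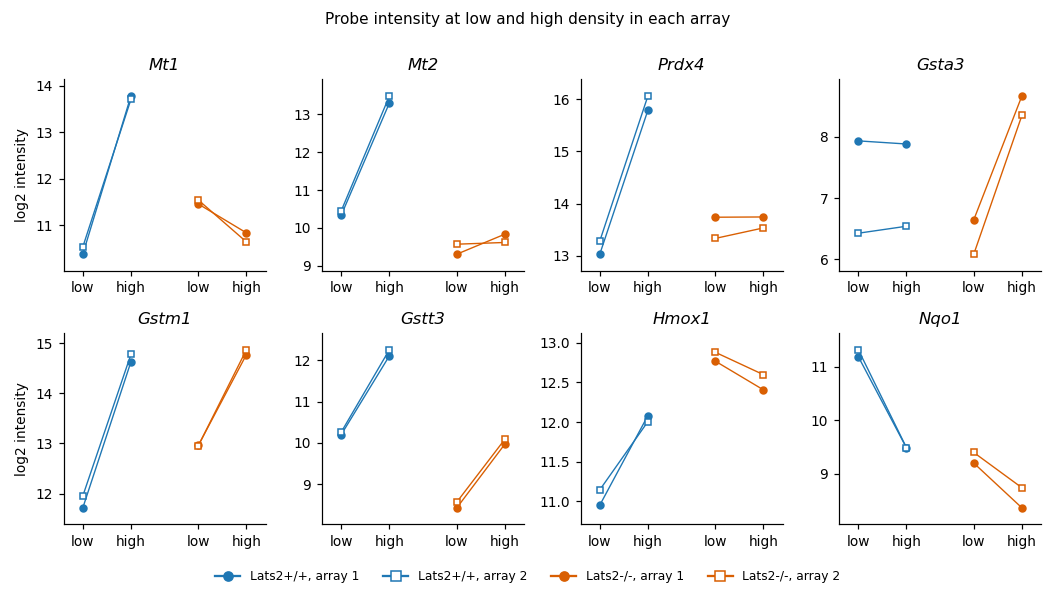
Log2 probe intensity of 8 genes at low and high density, with a line for each array (filled circles array 1, open squares array 2, WT-labelled in blue, KO-labelled in orange). Mt1, Mt2 and Prdx4 climb past 2-fold in WT and stay within 2-fold in KO (Mt2 by 0.53 and 0.05), Gsta3 climbs past 2-fold in KO and stays level in WT, and Gstm1 and Gstt3 climb in both. Each panel has its own axis range.

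Among the peroxiredoxins, thiol enzymes that reduce hydrogen peroxide, Prdx4 stood apart from the other 5. Prdx4 is the member resident in the endoplasmic reticulum, where it helps to form disulfide bonds. It was higher at high density in WT by 2.76 and 2.78, or 6.82-fold (2.77 ± 0.02), and differed by 0.01 and 0.20 in KO. At high density it was lower in KO by 2.53 in Cy3 and 2.05 in Cy5, or 4.88-fold, while at low density KO was above WT by 0.71 and 0.05, which do not reach 2-fold. A second probe at chrX:150677668-150677727, against chrX:150671055-150671114 for the first (mm8), gave 1.12 in WT, -0.63 in KO, 0.31 at low density and -1.44 at high density, so the sign of every called value was shared by both probes. Like Mt1 and Mt2, Prdx4 was called higher with density in WT alone and lower in KO than in WT at high density. For that reason its promoter window (minus strand, chrX:155338431-155338710, GRCm38.p6) is shown, with its single TGCGCNC core in capitals.
Prdx4: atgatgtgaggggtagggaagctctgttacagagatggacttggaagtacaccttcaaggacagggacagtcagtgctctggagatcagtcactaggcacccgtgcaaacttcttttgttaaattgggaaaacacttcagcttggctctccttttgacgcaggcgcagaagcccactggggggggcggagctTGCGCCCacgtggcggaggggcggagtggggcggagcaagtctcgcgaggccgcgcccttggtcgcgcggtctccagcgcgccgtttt
Prdx1, an abundant cytosolic member, was lower in KO at high density by 1.14 in Cy3 and 0.96 in Cy5 (-1.05 ± 0.13), and without KO replicate 2 or WT replicate 2 it stood at -0.96 and was not called, nor was it with channels scaled to a common median (-0.94). Its density effects were 0.32 and 0.16 in WT and -0.18 and -0.20 in KO, and under median centring both means were below 0 (-0.03 and -0.66). Prdx5, found in mitochondria and peroxisomes, was higher in KO at low density by 1.23 and 1.03 (1.13 ± 0.14), with density effects of 0.05 and 0.38 in WT and -0.58 and -0.49 in KO. Under median centring its WT mean was -0.01 and its KO mean -0.91. Prdx2, Prdx3 and Prdx6 passed the rule in 0 comparisons, with means between -0.44 and 0.58. The peroxiredoxins' medians in WT (0.23) and at low density between genotypes (0.22) were small, and the WT one turned to -0.02 under median centring.

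The glutathione S-transferases made up 19 of the 49 genes. In WT 8 of 16 measured were higher at high density and 1 lower, with a median of 0.92, and in KO 6 of 13 were higher and 2 lower, with a median of 0.75. Of all genes 9.42% were higher and 6.09% lower in WT, and 7.16% and 3.87% in KO. The WT median became 1.38 without the offset and 1.47 with Agilent's processed signals, and the KO median 0.41 under median centring. By class, 7 of 12 measured alpha, mu and theta genes were higher in WT and 0 lower, and 6 of 10 were higher in KO and 0 lower, while of the 2 omega genes 0 were higher and 1 lower in WT, and 0 and 2 in KO. These directions kept under each scaling tried for the mu and theta classes, and in KO the alpha gene Gsta1 was called lower without the offset and with Agilent's processed signals.

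The mu class genes lie side by side on chromosome 3, with probes from chr3:108026239-108026298 (Gstm5) to chr3:108168940-108168999 (Gstm4) in mm8. Gstm1 was higher at high density by 2.91 and 2.82 in WT, or 7.30-fold. The KO arrays gave 1.81 and 1.92, or 3.64-fold. In KO its level at low density was already above WT by 1.246 in Cy3 and 1.001 in Cy5, while at high density the genotypes differed by 0.12 ± 0.04. The difference of its density effects was -1.003 ± 0.136, at the threshold, and was not called without KO replicate 1 or WT replicate 1 (-0.91). A second Gstm1 probe gave 2.05 in WT, 1.17 in KO, and 0.66 and -0.22 at low and high density between genotypes, and the mean of both probes left the low density difference (0.89) and the difference of the effects (-0.94) uncalled.

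Gstm3 followed with 2.58 and 2.37 in WT and 1.61 and 1.74 in KO. Gstm2 was higher by 1.53 and 1.59 in WT. In KO it gave 0.74 and 0.77, short of 2-fold, and it stood above WT at low density by 1.23 and 1.26. Gstm5 was higher by 1.24 and 1.41 in WT, and the KO arrays gave 0.68 and 0.79. All 5 mu genes measured in both genotypes had a smaller density effect in KO than in WT, with differences from -0.27 (Gstm4) to -1.003 (Gstm1), and all 5 were above WT at low density (0.27 to 1.25). Gstm4 gave 0.35 in WT and 0.08 in KO. Gstm7 was well above background at high density in WT and on neither WT array at low density, which makes it at least 1.42-fold higher there, a bound set against the lowest signal that counts as well above background. Gstm6 was not well above background in any channel. Mu genes are close copies of each other, and whether a probe reads a neighbour was not tested.

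The theta genes Gstt1 and Gstt3, neighbours on chromosome 10 with probes at chr10:75230664-75237828 and chr10:75217937-75217996 (mm8), were higher at high density in both genotypes. Gstt1 gave 2.037 and 2.001 in WT and 1.57 and 1.58 in KO. It was not well above background on WT array 1 at low density, and its WT mean of 2.02 became 3.09 without the offset and 3.46 with Agilent's processed signals. Gstt3 gave 1.90 and 1.99 in WT and 1.54 and 1.52 in KO. Only Gstt3 of the pair also differed by genotype at the 2-fold size: it was lower in KO by 1.77 and 1.69 at low density and by 2.17 and 2.13 at high density, or 3.33-fold and 4.43-fold. For Gstt1 the genotype differences were 0.58 ± 0.18 and 0.13 ± 0.15, and at low density it passed the rule without the offset (1.21) and with Agilent's processed signals (1.47), where its density effects also differed past 2-fold (-1.102 and -1.33, against -0.45). Gstt2 gave 0.23 in WT and differed by -0.35 and -0.47 between genotypes.

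In the alpha class, whose members also reduce lipid peroxides, Gsta4 was high in KO and rose with density in both genotypes. Gsta4 acts on 4-hydroxynonenal, a product of lipid peroxidation. Its density effect was 2.040 and 2.003 in WT (4.06-fold) and 1.63 and 1.69 in KO (3.16-fold), and the 10 spots of its probe varied by an SD of 0.043 to 0.092 per array. KO stood above WT by 2.18 and 2.50 at low density and by 2.19 and 1.77 at high density, or 5.07-fold and 3.94-fold. The background step moved the low density difference of 2.34 to 3.14 without the offset and 3.42 with Agilent's signals, and the WT density effect of 2.02 to 2.82 and 2.98. The difference of its density effects, -0.36, became -1.06 without the offset and -1.24 with Agilent's signals.

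Gsta3 was higher at high density in KO by 2.03 and 2.27 (4.43-fold, 2.15 ± 0.17), against -0.05 and 0.11 in WT. The difference of the effects was 2.12 ± 0.06. On WT array 2 at low density its signal was not well above background. Without the offset the KO effect was 3.24, and with Agilent's signals 3.61. The 2 WT arrays disagreed in level: WT1 read 7.94 and 7.88 at low and high density, and WT2 6.42 and 6.54. KO over WT at high density was accordingly 1.81 in Cy3 and 0.79 in Cy5, and at low density -1.29 and -0.34. Without KO replicate 2 or WT replicate 2 the high density value was 0.79 and was not called, and the low density value was -1.29 and was called lower, as it was without the offset (-1.32). A second Gsta3 probe, well above background in 3 KO channels and 0 WT channels, gave 1.20 in KO, and at high density KO was at least 2.28-fold above WT. At low density it was not measured by the rule, and its difference of 0.28 had the opposite sign to the brightest probe's mean of -0.82. The Gsta3 window (plus strand, chr1:21240335-21240614, GRCm38.p6) is shown as that of the member with the clearest effect in KO alone, with its antioxidant response element core TGACNNNGC in capitals.
Gsta3: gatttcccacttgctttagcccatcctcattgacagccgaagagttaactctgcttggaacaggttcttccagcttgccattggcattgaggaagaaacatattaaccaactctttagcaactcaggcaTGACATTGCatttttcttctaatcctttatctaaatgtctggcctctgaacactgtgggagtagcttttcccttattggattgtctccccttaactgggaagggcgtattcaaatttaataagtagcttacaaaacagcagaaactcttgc
This core was in the windows of 10 of 42 members (Gclm, Gsta3, Gstm5, Gstm7, Mt2, Nfe2l2, Prdx1, Sod1, Srxn1 and Txnrd1) and of 14.0% of all 27025 genes, searched on both strands. The AP-1 site TGANTCA was in 5 of 42 members and 8.97% of all genes. In the order listed, the members with TGACNNNGC gave WT density effects of -0.18, 0.03, 1.32, 0.51, 3.00, 0.81, 0.24, 0.16, -0.12 and -1.40. Whether the core plays a part was not tested.

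Of the omega genes, Gsto1 was lower at high density in both genotypes and Gsto2 in KO. Gsto1, a thiol transferase that also reduces dehydroascorbate, was lower at high density by 1.25 and 1.08 on the log2 scale in WT (-1.17 ± 0.12). In KO the arrays gave -2.07 and -1.91 (-1.99 ± 0.11). Gsto2 gave 0.43 and 0.37 in WT, while in KO it was -1.31 and -1.02, a difference of -1.56 ± 0.24 between the effects. Both were above WT in the KO cells at low density, Gsto1 by 1.097 and 1.016 and Gsto2 by 2.56 and 2.24 (5.28-fold), while at high density they differed by 0.23 and 0.84. A second Gsto2 probe was well above background in 3 channels and gave -0.21 in KO, and at low density KO was at least 1.23-fold above WT, which was not well above background. Also, with the mean of both probes the KO density effect (-0.69) was not called.

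Gstk1, the kappa enzyme of mitochondria and peroxisomes, was lower in KO at both densities. KO over WT was -3.06 and -3.25 in the 2 dyes at low density and -4.88 and -4.66 at high density. In WT it was higher at high density by 1.38 and 1.63. Its KO signal lay near background and was well above it on KO array 1 only, so no KO density effect was called and the sizes are set against a KO signal near background. They depend on the background step: without the offset the differences were -4.93 and -6.92, and with Agilent's signals -5.96 and -8.19. Gstp1, the pi class gene, differed little, with 0.51 in WT, 0.27 in KO, and 0.07 and -0.16 between genotypes. Gsta1 was dim and gave 0.15 in WT and -0.36 in KO.

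**Figure D3:**
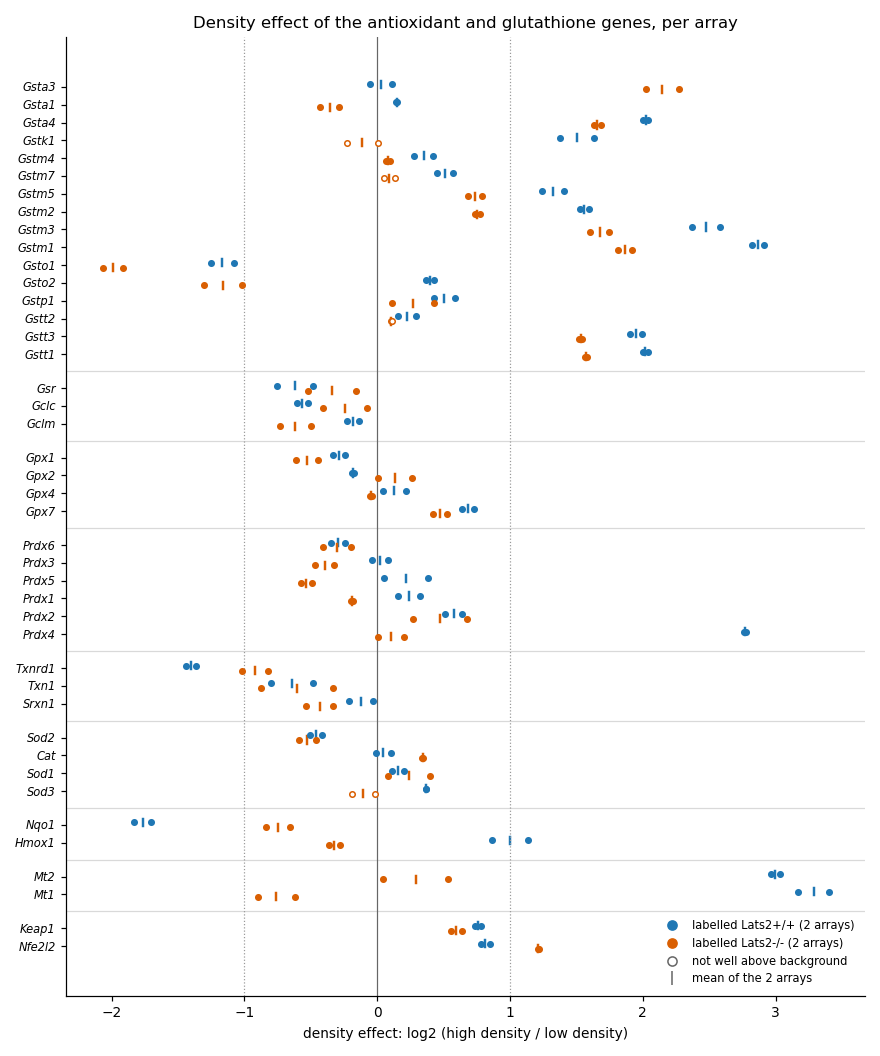
Density effect (log2 of high over low density) of the 42 members measured in at least 1 genotype, grouped by role and class, with 2 arrays as points and their mean as a tick (blue WT-labelled, orange KO-labelled, open points not well above background). Dotted lines mark 2-fold. Gstm1, Gstm3, Gstt1, Gstt3 and Gsta4 lie past the right 2-fold line in both genotypes, Mt1, Mt2 and Prdx4 in WT but not in KO, and Gsta3 in KO but not in WT.

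Of the genes of glutathione synthesis and recycling, 0 of 3 measured passed 2-fold with density, and all 3 means were below 0 in both genotypes. Gclc, the catalytic subunit of glutamate-cysteine ligase, gave -0.52 and -0.61 in WT and -0.08 and -0.41 in KO. Its modifier subunit Gclm gave -0.14 and -0.23 in WT and -0.50 and -0.73 in KO. Gclm was higher in KO at low density by 1.05 and 1.22 (2.19-fold), and at high density by 0.71 and 0.69, short of 2-fold except with Agilent's signals (1.09). Glutathione reductase, Gsr, which restores reduced glutathione with NADPH, gave -0.49 and -0.76 in WT and -0.16 and -0.52 in KO, and differed by 0.46 and 0.74 between genotypes at low and high density. All 3 Gsr probes had the same signs. The cystine importer Slc7a11 was at or near background in most channels: its brightest probe was well above it on WT array 2 only, and a second probe, well above it in WT at low density alone, was there at least 1.38-fold above WT at high density and at least 1.58-fold above KO.

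Of the glutathione peroxidases, Gpx7 alone passed the rule. Gpx7, which like Prdx4 works in the endoplasmic reticulum, was 9.15-fold lower in KO at low density (-3.20 and -3.19) and 10.6-fold lower at high density (-3.39 and -3.42). Its density effects were 0.64 and 0.73 in WT and 0.42 and 0.53 in KO. Gpx1, Gpx2 and Gpx4 gave means between -0.53 and 0.67 in all comparisons. Gpx3, Gpx5 and Gpx6 were not measured, and of their channels 1 (Gpx3) was well above background. Superoxide dismutases and catalase, which remove superoxide and hydrogen peroxide, passed in 0 comparisons, with Sod1, Sod2 and Cat between -0.53 and 0.67. Without the offset and with Agilent's processed signals 1 of the 4 was called higher in the WT density effect and 1 lower in KO at high density. Sod3, the secreted dismutase, was well above background only in WT at high density, and was there at least 1.53-fold above KO.

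In the thioredoxin system, the reductase Txnrd1 was lower at high density in WT by 1.36 and 1.44 on the log2 scale (2.64-fold, -1.40 ± 0.05). In KO the arrays gave -0.82 and -1.02, a mean of -0.92 that is short of 2-fold, was past it without KO replicate 1 (-1.02), and was also past it under median centring (-1.45). Thioredoxin itself, Txn1, gave -0.48 and -0.80 in WT and -0.34 and -0.88 in KO. Srxn1, which repairs over-oxidised peroxiredoxins, gave -0.22 and -0.03 in WT and -0.53 and -0.33 in KO. Between genotypes at low density its 3 probes disagreed in sign (0.28, -0.35 and -0.23).

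Nqo1 and Hmox1, the quinone reductase and the haem oxygenase used as readouts of the oxidative stress response, differed from each other. Nqo1 was lower at high density in WT by 1.71 and 1.83 on the log2 scale (3.405-fold). The KO arrays gave -0.84 and -0.66, short of 2-fold. It was 3.88-fold lower in KO at low density (-1.99 and -1.92). At high density it differed by -0.75 and -1.12, a mean of -0.94 that passed without KO replicate 2 or WT replicate 2 (-1.12), without the offset (-1.05) and with Agilent's processed signals (-1.13). The difference of its effects, 1.02 ± 0.21, was 0.87 without KO replicate 2 or WT replicate 2 and 0.97 with Agilent's signals, both under the threshold. Hmox1 was higher at high density in WT by 1.13 and 0.86, a mean of 0.998 that just misses 2-fold, and past it without the offset (1.05), with Agilent's signals (1.03) and without WT replicate 2 (1.13). In KO it gave -0.36 and -0.28, so that the effects differed by -1.32 ± 0.25. At low density Hmox1 was 3.43-fold higher in KO (1.82 and 1.74), and at high density it differed by 0.59 and 0.33.

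Of the regulators, Nfe2l2 was higher at high density by 0.78 and 0.85 in WT. In KO it gave 1.22 and 1.21 (2.32-fold), past 2-fold except under median centring (0.84) and with the mean over probes (0.58). A second probe close by gave 0.733 and 1.097, and -0.01 between genotypes at low density. The remaining Nfe2l2 probe, at chr2:75492729-75492788 against chr2:75476553-75476612 for the brightest (mm8), went the other way in KO (-0.55) and was at least 2.66-fold higher in KO than in WT at low density, where the WT arrays were not well above background. Keap1, the adaptor that marks NRF2 for degradation, gave 0.73 and 0.78 in WT and 0.64 and 0.55 in KO. Between genotypes Nfe2l2 differed by 0.10 and 0.50 at low and high density, and Keap1 by 0.34 and 0.18.

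**Figure D4:**
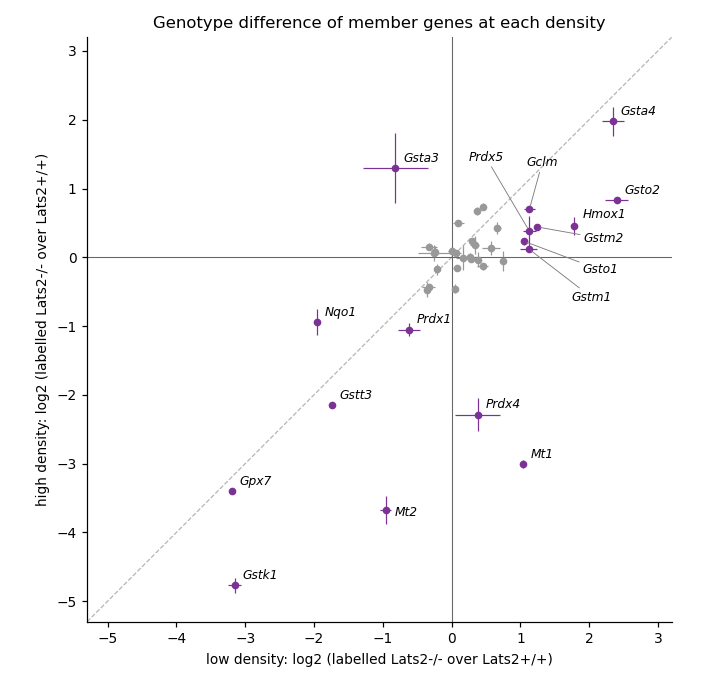
Genotype difference (log2 of KO-labelled over WT-labelled) at low density on the x axis against high density on the y axis for members measured at both. Points are means over 2 dyes and the bars span both dyes, with purple for genes past 2-fold at either density. Gstk1, Gpx7, Gstt3 and Nqo1 lie below 0 on both axes, Gsta4 above 0 on both, and Mt1 and Prdx4 lie above 0 at low and far below 0 at high density. The dashed line marks equal differences.

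Genes of the same pathways outside the rule were counted in the same way, with lists chosen when earlier results of these data were known. The shares to read them against are those of all genes: 15.5% in WT, 11.0% in KO, and 15.7% and 14.5% between genotypes at low and high density. Of 24 other glutathione genes measured in WT, 3 were higher at high density and 1 lower (16.7%, near the share of all genes), and in KO 0 of 23 were higher and 1 lower (4.35%). Between genotypes 1 was higher and 1 lower in KO at low density (9.09%), and 3 higher and 5 lower at high density (33.3%). The microsomal transferases were among them: Mgst2 was higher at high density in WT (1.85) and lower in KO than in WT at high density (-2.06), and Mgst3 was higher in KO at low density (2.85). The glutamine carrier Slc1a5 was lower in KO at low density (-3.01). Of 18 other thioredoxin genes, 5 were higher and 0 lower in WT (27.8%), and 3 higher and 1 lower in KO (22.2%). Sepp1, a selenium carrier, was higher at high density by 4.38 in WT and 3.08 in KO, the sestrin Sesn3 by 2.89 and 2.65, and the thioredoxin inhibitor Txnip by 1.56 in WT. Between genotypes 0 were higher and 1 lower in KO at low density (5.56%), and 0 and 2 at high density (11.1%). Of 17 NADPH supply genes, 0 were higher and 1 (Mthfd2, -1.48) lower in WT (5.88%), and 0 passed in KO. Between genotypes at low density 1 of 18 was higher in KO and 3 were lower (22.2%): Aldh1l2 (-3.58), Mthfd1l (-1.35) and, named after their values were seen, H6pd (-1.27) among the lower and Idh1 (1.12) as the higher. At high density 0 of 16 were higher and 1 lower (6.25%).

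Of 32 NRF2 partners and further targets, 6 were higher and 3 lower in WT (28.1%), and 2 higher and 1 lower in KO (9.38%). Between genotypes 6 of 30 were higher and 4 lower at low density (33.3%), and 4 of 33 higher and 6 lower at high density (30.3%). Osgin1 was higher in WT at high density (1.58) and lower in KO than in WT at both densities (-2.53 and -3.80). The aldo-keto reductase Akr1b8 was lower in KO at both densities (-2.03 and -3.61). Of 12 further metal genes, 0 were higher and 1 lower in WT (8.33%), and in KO 0 of 11 and 1 of 11 (9.09%). Between genotypes 2 were higher and 1 lower in KO at low density (25.0%), and 1 higher and 3 lower at high density (33.3%). The iron exporter Slc40a1 was higher in KO at high density (3.97) and well above background on 0 WT arrays at low density, the transferrin receptor Tfrc was lower at high density in WT (-1.41) and KO (-3.05), and the zinc carrier Slc39a8, called lower in KO at both densities, was well above background on all WT arrays and on 0 KO arrays. Of 17 oxidant-producing genes, 4 were higher and 2 lower in WT (35.3%), and 2 of 16 and 1 of 16 in KO (18.8%). Between genotypes 4 of 16 were higher and 2 lower in KO at low density (37.5%), and 5 of 17 higher and 2 lower at high density (41.2%). Cyba, a subunit of the NADPH oxidases, was lower in KO at both densities (-2.91 and -3.49), the amine oxidase Aoc3 was higher at high density in WT (3.07) and KO (1.08), and the lysyl oxidase Lox was higher in KO (1.30 and 2.80).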

How the data were processed

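RNA of mouse embryonic fibroblasts was measured on 4 Agilent 4x44K whole mouse genome arrays, a dye-swapped pair for each genotype. The authors deposited, per the file headers, the spot intensity of each channel as read by Agilent Feature Extraction 10.5.1.1, with the background, flags and a log10 ratio of red over green. The deposited series table holds that log10 ratio with the sign of the dye-swapped arrays turned, within a tolerance of 0.006 for every feature, with column medians of 0, and was not used for results.

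Mean signals were corrected with normexp (offset 50) and normalised by loess within arrays, control spots at weight 0, in limma 3.58.1 (R 4.3.3). Spots of a probe were averaged without outlier flags. Channels were scaled by Aquantile for genotype differences, taken within a dye. A probe entered a comparison when well above background on both arrays of at least 1 side. Calls need a mean of at least 2-fold and 1 sign. The labels do not say whether a dye-swapped pair shares its RNA. It was assumed to, and 1 replicate per group allows no test. The steps were tested on simulated data. Positions are the array's, in mm8, and promoter windows are RefSeq's, in GRCm38.p6, with a window for 42 of the 49 members (none used for Gclc, Gsr, Gsta4, Gstt2, Hmox1, Prdx6 and Sod3). Genes given with their values were all members past the rule in any comparison, Nfe2l2, Keap1, Gclc, Gclm, Gsr, Nqo1, Hmox1, Txnrd1, Srxn1 and Slc7a11, other probes of these where a measured value differed in sign or by 1 or more, and the 3 largest called genes of each further list, of which 1 is not reported here. Members and lists were chosen with earlier results of these data known. The study's methods also use 1.4-fold, tried as an alternative. Protein identities between members and probe sequences were not analysed here.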

Additional observations from a re-analysis of the deposited data

Results flagged for a closer look

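In 10 cases among the members called in at least 1 comparison, every array or dye of 1 group moved one way and every array or dye of the other group the opposite way. Over all measured members, such opposite signs were seen between WT and KO density effects for 8 of 38 (21.1%) against 15.2% of all genes, and between genotype differences at low and high density for 7 of 40 (17.5%) against 16.0% of all genes, so the counts are near those of genes at large. None of these differences was tested, since each group was taken to be 1 culture. The density effect had opposite signs in WT and KO for 5 of the called genes. Gsta1, Gpx2 and Gpx4, called in no comparison, make up the rest of the 8. The KO effect minus the WT effect was -4.05 for Mt1, -1.56 for Gsto2, -1.32 for Hmox1, -0.75 for Prdx5 and -0.43 for Prdx1. For Prdx1 and Prdx5 the opposite sign was lost under median centring, where the WT means were -0.03 and -0.01. The genotype difference had opposite signs at low and high density for 5 of the called genes. Gsta1 and Gstp1, called in no comparison, make up the rest of the 7. The high density value minus the low density value was -4.05 for Mt1, -2.67 for Prdx4, 2.12 for Gsta3, -0.59 for Gstm5 and 0.48 for Txnrd1. For Gsta3 the opposite sign rests on the brightest probe, which was not well above background on WT array 2 at low density. A second Gsta3 probe, above 0 in both dyes at both densities (means 0.28 and 1.37), was well above background on 1 KO array and 0 WT arrays at low density and so was not measured there. Single values such as 0.05 for Prdx4 in Cy5 at low density and -0.08 for Gstm5 in Cy3 at high density are small. Over all probes, the SD of a dye's value about the mean of the pair was larger (0.113 and 0.149). For Hmox1 (0.998 and -0.32), Prdx5, Prdx1, Gstm5 and Txnrd1 both of the values compared were under 2-fold.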

How the results depend on the processing

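Each value was recomputed under 12 alternatives, 4 of which left out 1 array. Of 1350 values of named genes under an alternative, 0 called values changed sign and 1280 kept their call. Part of these values could not change. The filters and the 1.4-fold threshold alter no value, and scaling channels to a common median acts on genotype differences only. Leaving out an array of 1 genotype does not touch the density effect of the other. Leaving out the same array number of KO or of WT gives the same genotype differences, counted under both. The number of members called in the genotype difference at high density was 9, and became 14 with normexp without an offset and 16 with Agilent's processed signals, where the 9 genes called before were all called. With a 1.4-fold threshold in place of 2-fold the counts were 24 for the WT density effect (14 at 2-fold), 20 for the KO density effect (9), 16 for the genotype difference at high density (9) and 14 for the difference of the density effects (8). Of all genes 41.1%, 36.7%, 39.4% and 31.5% passed 1.4-fold in those comparisons, and 21.8% and 25.9% passed 2-fold at high density between genotypes without the offset and with Agilent's signals. Counts under the other alternatives stayed within 1.5 times those reported. Leaving out 1 array gave 14 to 15 members for the WT density effect, 9 to 10 for the KO effect, 13 to 15 between genotypes at low and 8 to 9 at high density, and 7 for the difference of the effects. The members' median KO density effect, 0.02, changed sign under median centring (-0.41), with Agilent's processed signals (-0.01), with no filter on dim probes (-0.003), with the mean over probes (-0.12) and without KO replicate 2 (-0.03). The cause was not tested. Slide as a block was not run, because every slide held 1 genotype and it could not be fitted. The density effect pairs high with low density within each array, but with each group taken to be 1 culture no test was possible, paired or not. Signal over background limits Gstk1 in KO, Gstm7, Sod3 and Slc7a11.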

Other observations

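The Gsta2 and Gstt4 probes on the first WT array read above the other 3 arrays in both dyes, and so at both densities. Gsta2 read 7.88 and 7.70 on WT array 1 and 6.22 and 6.16 on WT array 2, against 5.98 to 6.15 on the KO arrays. The brightest Gstt4 probe read 8.52 and 8.39 on WT array 1 and 6.07 and 6.06 on WT array 2, while a second Gstt4 probe at the adjacent 60 bases was well above background in 0 channels. Gsta3 on WT array 1 was above WT array 2 at both densities, but below both KO arrays at high density (8.67 and 8.35 against 7.88). These values entered no called density effect in WT.

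Prdx2 was printed 10 times, and its density effect in KO was 0.27 on array 1 (SD over spots 0.062) and 0.68 on array 2 (SD 0.016), so that spots within an array agreed more closely than the 2 arrays. The 2 KO arrays differed in dye order and came from 2 slides scanned on 2 days, so these cannot be told apart. The WT arrays shared 1 slide and 1 scan day. Over all probes in the KO comparison, the SD of an array's value about the mean of the pair was 0.143, and in WT 0.0986.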
